A study of Homo sapiens with 22 samples.

Results

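The clustered protocadherins are 53 genes that lie side by side on chromosome 5, and they were taken as a group by name: 15 alpha, 16 beta and 22 gamma genes out of 19970 protein-coding genes. They are described here in 4 peak lists from human cells, through all regions listed in a window of 900 kb that holds them, in the genome build hg38. PCDHA1 starts at position 140786140 of chromosome 5 and the gamma genes end at 141512975. The series held 22 libraries. ATAC-seq, which reads open chromatin through cuts by the transposase Tn5, was run on 8 libraries of HFFc6, subclone c6 of a foreskin fibroblast line immortalised with hTERT, and on 2 libraries of H1, a human embryonic stem cell line. CTCF, a DNA-binding protein that stops cohesin loops, was mapped in 2 HFFc6 libraries by Cut&Tag, in which an antibody brings Tn5 to the protein. Those 2 libraries are titled HFF1 but labelled HFFc6 as their line. Their titles also end in chip, although the assay is taken here as Cut&Tag. No drug, knockout or other treatment is labelled in any of these libraries. A CTCF list named for human embryonic stem cells (hESC) is described by no sample label used here, so its line, its assay and the number of its libraries are unknown here. Below, it goes by the name hESC-named CTCF list. Labels R (2 values) and T (4 values) tell the 8 HFFc6 ATAC libraries apart, with no meaning stated. A further 10 libraries, for SMC1, H3K4me3 or H3K27ac, were not used here.

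Clustered protocadherins are cell-surface adhesion proteins best known in neurons, where each cell uses its own small set of them and the combination helps a neurite tell itself from others. Every alpha, beta and gamma variable exon has its own promoter. An alpha or gamma variable exon is spliced to constant exons shared by its family, while a beta gene is used without such constant exons. CTCF is known to bind a short conserved element just before most of these starts, and cohesin loops connect the bound promoter to distant enhancers. The C-type genes at the end of the alpha and gamma families are known to be used by many neurons rather than picked one by one.

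The short element is shown first because the CTCF summits are set against it below. Of the 53 genes, 47 had an entry in the RefSeq promoter table (GRCh38.p14, 250 bases before to 50 bases after the start), all on the plus strand, and PCDHA3, PCDHA13, PCDHB6, PCDHB11, PCDHGA12 and PCDHGC5 had none. The word GNCGCT, read on the plus strand between 120 and 30 bases before the start, was found in 42 of the 47, against 10.8% of 34961 promoters. The 42 are genes with the word in any of their entries, placed from the gene's start. The share counts single entries, each from its own start. The words searched were chosen after the promoters had been read, and GNCGCT contains CGCT. Below are 34 bases around the element of the gene with the highest HFFc6 CTCF fold enrichment in each family among genes with an entry, then of the 5 alpha genes with an entry that come first among those with CTCF in the hESC-named list alone. PCDHGA8 and PCDHGA5 were added after their values were seen, as genes with the element and with no region or a single one. Capitals mark CGCT.
PCDHA7, chr5:140834168-140834201: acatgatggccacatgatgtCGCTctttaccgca
PCDHB14, chr5:141223259-141223292: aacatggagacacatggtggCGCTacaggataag
PCDHGB5, chr5:141397859-141397892: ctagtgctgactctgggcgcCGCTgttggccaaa
PCDHA1, chr5:140786082-140786115: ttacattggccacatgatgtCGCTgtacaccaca
PCDHA5, chr5:140821538-140821571: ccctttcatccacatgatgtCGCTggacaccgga
PCDHA6, chr5:140827893-140827926: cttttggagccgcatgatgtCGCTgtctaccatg
PCDHA8, chr5:140841126-140841159: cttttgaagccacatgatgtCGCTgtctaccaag
PCDHA10, chr5:140855837-140855870: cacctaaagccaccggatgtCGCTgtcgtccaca
PCDHGA8, chr5:141392564-141392597: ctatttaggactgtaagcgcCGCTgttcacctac
PCDHGA5, chr5:141364103-141364136: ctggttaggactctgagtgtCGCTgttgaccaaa

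Many genes of each family shared a longer word around the element. The 12 letters CATGATGTCGCT, which end in CGCT, were picked as the commonest at the element of the alpha genes themselves. They were found in 8 of the 13 alpha genes with an entry. On either strand they were found in 8 of 34961 promoters, a share of 0.0229%. Those 8 were PCDHA1, PCDHA2, PCDHA4, PCDHA5, PCDHA6, PCDHA7, PCDHA8 and PCDHA12. GGTGGCGCT was found in 13 of the 14 beta genes with an entry, PCDHB1 being without it, and in 0.503% of all promoters. GNCGCTGTT was found in 13 of 20 gamma genes with an entry and in 1 beta gene, PCDHB3, against 0.847% of all promoters. CGCT alone is common, at 70.1% of promoters on either strand, and all of these words contain it. PCDHA9, PCDHAC2, PCDHB5, PCDHB8 and PCDHGB7 had no GNCGCT in the window. In PCDHB5 the beta word lay 11 bases before the start, and in PCDHB8 at 3 bases after it, so these 2 genes have the word outside the window. PCDHAC2, PCDHB1, PCDHGC4 and PCDHGC5 are known as the genes without a full conserved element, and the loose word GNCGCT still matched in PCDHB1 and PCDHGC4. A match is a description of letters and not a measured binding site.

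The whole promoter entries of PCDHA7, PCDHB14 and PCDHGB5, the genes with the highest HFFc6 CTCF value per family among those with an entry, follow, to show what surrounds the element. Capitals again mark the CGCT of the element. GC content was 36.0% for PCDHA7, 35.7% for PCDHB14 and 48.3% for PCDHGB5.
PCDHA7, chr5:140834019-140834318: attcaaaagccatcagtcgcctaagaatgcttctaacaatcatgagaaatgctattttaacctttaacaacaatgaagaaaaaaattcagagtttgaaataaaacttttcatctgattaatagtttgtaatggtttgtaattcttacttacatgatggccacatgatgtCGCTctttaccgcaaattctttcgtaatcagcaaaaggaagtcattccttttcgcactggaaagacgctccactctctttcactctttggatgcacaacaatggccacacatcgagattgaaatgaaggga
PCDHB14, chr5:141223093-141223392: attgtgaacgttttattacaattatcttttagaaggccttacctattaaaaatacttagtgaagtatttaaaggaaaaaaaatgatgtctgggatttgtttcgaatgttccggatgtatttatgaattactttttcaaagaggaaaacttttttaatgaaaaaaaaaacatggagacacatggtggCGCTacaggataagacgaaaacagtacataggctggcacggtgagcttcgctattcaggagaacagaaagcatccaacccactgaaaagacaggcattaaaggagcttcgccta
PCDHGB5, chr5:141397697-141397996: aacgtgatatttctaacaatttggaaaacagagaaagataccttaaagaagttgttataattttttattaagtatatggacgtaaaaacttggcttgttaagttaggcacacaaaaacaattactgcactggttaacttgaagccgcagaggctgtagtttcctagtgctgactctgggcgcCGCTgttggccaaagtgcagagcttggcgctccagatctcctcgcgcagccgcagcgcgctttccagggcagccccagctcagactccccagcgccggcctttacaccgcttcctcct

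A gene counted as having a region when a listed region came within 1 kb of its start, the low-coordinate end of the gene, and regions counted as shared at an overlap of 1 bp. Each list is 1 call by the peak caller MACS2 for its group and holds no values per library, so no spread between replicates and no test could be had. The fold enrichment (signal over the caller's background), the −log10 q and the summit (the highest point) are the authors' values. A summit position below 0 lies before the gene start. These values describe regions within 1 list, and no fold enrichment is compared between lists. The percentile is the share of the list's regions with a lower rank by fold enrichment. The depth behind the lists is unknown. Cell line and assay cannot be told apart in the CTCF comparison, since the assay of the hESC-named list is not given. Chromatin at marker genes went with the labels only in part. An ATAC region lay within 1 kb of an end of 2 of 7 stem cell markers in HFFc6 and of 6 of 7 in H1, with POU5F1 in neither list, against 76.1% (HFFc6) and 78.8% (H1) of all 19970 protein-coding genes. For 7 fibroblast markers it was 6 in HFFc6 and 6 in H1, with THY1 in neither, and for 5 neuron markers 5 in HFFc6 and 4 in H1.

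The families differed in where CTCF was listed at their starts. At the alpha genes CTCF was at 6 of 15 starts in HFFc6 and at 15 of 15 in the hESC-named list. At the beta genes it was at 12 of 16 in HFFc6 and at 15 of 16 in the hESC-named list, and at the gamma genes at 20 of 22 in HFFc6 and at 18 of 22 in the hESC-named list. Over all 53 genes this made 38 HFFc6 and 48 hESC-named starts. The background was 66.4% (HFFc6) and 66.6% (hESC-named) of 8065 protein-coding genes on the plus strand, whose low-coordinate end is likewise their start. Only genes with a plus-strand entry in the promoter table are among these 8065, so 47 of the 53 genes are. Below, plus-strand genes means this set. CTCF was in both lists at 35 genes (background 59.0%), in HFFc6 alone at 3 (7.46%), in the hESC-named list alone at 13 (7.63%) and in neither at 2 (25.9%). Of the 13 genes of the hESC-named list alone, 9 were alpha, 3 beta and 1 gamma, while the 3 of HFFc6 alone were all gamma.

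**Figure D1:**
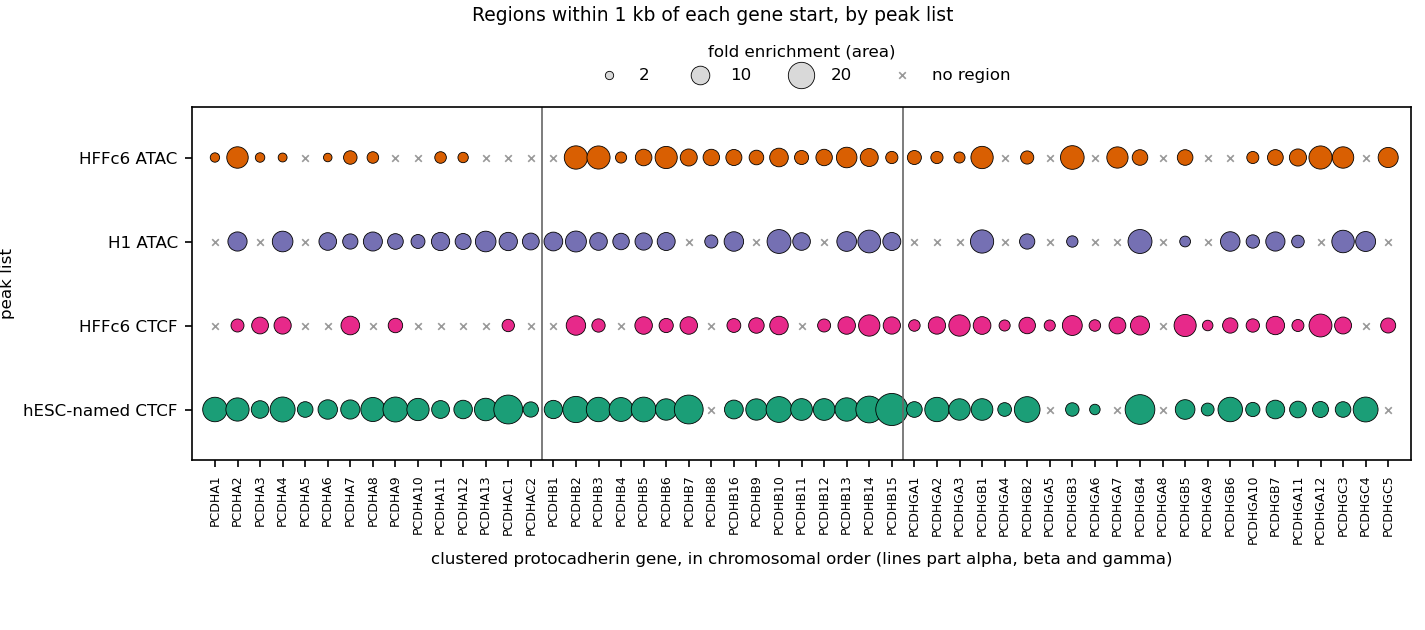
Each column is 1 of the 53 genes in chromosomal order and each row 1 peak list, with circle area for the fold enrichment of the strongest region within 1 kb of the start and a cross for no region. The crosses of the HFFc6 CTCF row gather among the alpha genes (9 of 15), and those of the H1 ATAC row among the gamma A genes (10 of 12).

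Open chromatin followed another order. ATAC regions lay at 9 of 15 alpha starts in HFFc6 and at 12 of 15 in H1, at 15 of 16 beta starts in HFFc6 and at 13 of 16 in H1, and at 15 of 22 gamma starts in HFFc6 and at 11 of 22 in H1. Over the 53 genes it was 39 in HFFc6 and 36 in H1, against 73.3% (HFFc6) and 76.2% (H1) of the plus-strand genes. An ATAC region was in both lists at 28 genes (background 68.1%), in HFFc6 alone at 11 (5.28%), in H1 alone at 8 (8.13%) and in neither at 6 (18.5%). Within the gamma family the gap lay in the A genes, with 7 of 12 in HFFc6 and 2 of 12 in H1, whereas the B genes, which alternate with them along the chromosome, had 6 of 7 in HFFc6 and 7 of 7 in H1. All 4 lists had a region at 21 of the 53 starts (background 57.4%), which were 3 alpha genes (PCDHA2, PCDHA4 and PCDHA7), 9 beta genes (PCDHB2, PCDHB3, PCDHB5, PCDHB6, PCDHB10, PCDHB13, PCDHB14, PCDHB15 and PCDHB16) and 9 gamma genes (PCDHGB1, PCDHGB2, PCDHGB3, PCDHGB4, PCDHGB5, PCDHGB7, PCDHGA10, PCDHGA11 and PCDHGC3).

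**Figure D2:**
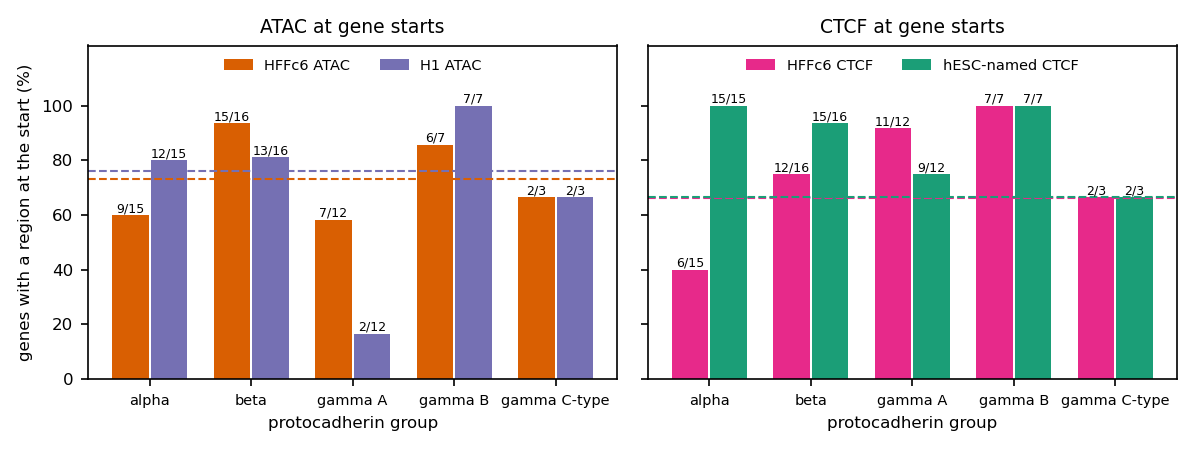
Bars give the percentage of genes in each group with a region at the start, with the counts above them, for ATAC on the left and CTCF on the right. Dashed lines give the same percentage over 8065 plus-strand protein-coding genes with a promoter entry. The alpha genes stand at 6 of 15 for HFFc6 CTCF against 15 of 15 for the hESC-named list, and the gamma A genes at 7 of 12 for HFFc6 ATAC against 2 of 12 for H1 ATAC.

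The alpha genes with CTCF in the hESC-named list alone were spread along the family. PCDHA1 had a fold enrichment of 17.3 (−log10 q 96.5, summit at -137 bp, percentile 86.5). PCDHA5 had a fold enrichment of 7.03 (−log10 q 18.9, summit at 451 bp, percentile 50.6), and it was the one alpha gene with ATAC in neither list. PCDHA6 had a fold enrichment of 10.9 (−log10 q 75.6, summit at -85 bp, percentile 67.9). These 3 genes carry the family's CATGATGTCGCT word shown above. PCDHA8 had a fold enrichment of 16.7 (−log10 q 288, summit at -23 bp, percentile 84.95). PCDHA10 had a fold enrichment of 14.3 (−log10 q 139, summit at -134 bp, percentile 78.5). PCDHA11 had a fold enrichment of 9.12 (−log10 q 98.6, summit at 604 bp, percentile 61.2). PCDHA8 has the same word, while PCDHA10 and PCDHA11 have GNCGCT in other surroundings. PCDHA12 had a fold enrichment of 9.86 (−log10 q 179, summit at -9 bp, percentile 64.2). PCDHA13 had a fold enrichment of 14.6 (−log10 q 101, summit at 583 bp, percentile 79.4). PCDHAC2, a C-type gene known in mouse for the spacing of serotonin axons, had a fold enrichment of 6.73 (−log10 q 17.7, summit at -364 bp, percentile 48.7), the weakest hESC-named CTCF region of the alpha starts. Its summit was also the farthest before a start.

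The 6 alpha genes with CTCF in both lists included the strongest and weakest HFFc6 regions of the family. PCDHA7 had in HFFc6 a fold enrichment of 10.02 (−log10 q 36.7, summit at 157 bp, percentile 79.2), the highest of the family in that list, and in the hESC-named list a fold enrichment of 10.6 (−log10 q 47.4, summit at 450 bp, percentile 66.9). PCDHAC1 had in HFFc6 a fold enrichment of 4.405 (−log10 q 6.61, summit at 542 bp, percentile 29.4), the lowest, and in the hESC-named list a fold enrichment of 23.99 (−log10 q 408, summit at 210 bp, percentile 97.5), the highest of the family in that list. The order of the alpha genes thus differed between the 2 lists. The HFFc6 fold enrichments of the other 4 were 4.87 for PCDHA2, 8.11 for PCDHA3, 8.51 for PCDHA4 and 6.03 for PCDHA9.

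ATAC at the alpha starts was below the middle of the HFFc6 list apart from 1 gene. PCDHA2 had a fold enrichment of 13.2 (−log10 q 181, summit at 528 bp, percentile 85.8), while the median of the 9 alpha regions was at percentile 18.2. PCDHA7 came next, with a fold enrichment of 5.26 (−log10 q 32.0, summit at -17 bp, percentile 43.2). PCDHA1 had a fold enrichment of 2.53 (−log10 q 5.795, summit at 1 bp, percentile 9.51) and PCDHA3 had a fold enrichment of 2.597 (−log10 q 6.23, summit at 48 bp, percentile 10.4), both in HFFc6 alone. With only regions of −log10 q of at least 10 kept, the HFFc6 count fell to 5 of 15, as PCDHA1, PCDHA3, PCDHA4 and PCDHA6 dropped out. In H1 the median of the 12 alpha regions was at percentile 74.1 and the highest was PCDHA4, with a fold enrichment of 12.3 (−log10 q 36.4, summit at 552 bp, percentile 85.4). The genes with ATAC in H1 alone were PCDHA9, with a fold enrichment of 7.07 (−log10 q 11.1, summit at 511 bp, percentile 60.95), PCDHA10, with a fold enrichment of 5.59 (−log10 q 7.24, summit at 557 bp, percentile 46.8), and PCDHA13, with a fold enrichment of 12.2 (−log10 q 27.9, summit at 577 bp, percentile 85.3). Both C-type genes were open in the H1 list alone. PCDHAC1 had a fold enrichment of 9.66 (−log10 q 49.2, summit at 212 bp, percentile 75.9), and PCDHAC2 had a fold enrichment of 8.16 (−log10 q 35.1, summit at -66 bp, percentile 68.4).

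The beta genes were the most evenly covered family. PCDHB14 had the strongest HFFc6 CTCF region of the family, a fold enrichment of 13.1 (−log10 q 58.1, summit at 33 bp, percentile 93.3), and PCDHB12 the weakest, a fold enrichment of 4.87 (−log10 q 8.15, summit at -1 bp, percentile 35.3). In the hESC-named list PCDHB15 was highest, with a fold enrichment of 29.7 (−log10 q 418, summit at -33 bp, percentile 99.6), and PCDHB1 lowest, with a fold enrichment of 9.66 (−log10 q 33.96, summit at -30 bp, percentile 63.5). PCDHB15 was also the highest hESC-named CTCF value at any of the 53 starts. PCDHB1, which lies apart from the other beta genes, had no region in either HFFc6 list, and in H1 it had an ATAC region with a fold enrichment of 10.1 (−log10 q 22.98, summit at 212 bp, percentile 78.3). PCDHB4 had CTCF in the hESC-named list alone, with a fold enrichment of 16.4 (−log10 q 155, summit at -160 bp, percentile 84.2), and so had PCDHB11, with a fold enrichment of 13.6 (−log10 q 69.6, summit at -74 bp, percentile 76.5). Both had an ATAC region in HFFc6 and in H1. PCDHB8, with ATAC in both lists and CTCF in neither, was the beta gene whose GGTGGCGCT lay past the annotated start.

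In HFFc6 ATAC the beta genes ran up to PCDHB2, with a fold enrichment of 15.7 (−log10 q 322, summit at -1 bp, percentile 93.1), and in H1 up to PCDHB10, with a fold enrichment of 16.4 (−log10 q 42.1, summit at -43 bp, percentile 94.2). The genes with ATAC in HFFc6 alone were PCDHB7, with a fold enrichment of 8.36 (−log10 q 73.9, summit at -14 bp, percentile 64.5), PCDHB9, with a fold enrichment of 6.15 (−log10 q 97.3, summit at -28 bp, percentile 50.7), and PCDHB12, with a fold enrichment of 7.79 (−log10 q 65.5, summit at 12 bp, percentile 61.3). All 3 had a CTCF region in both CTCF lists, so at these starts the hESC-named CTCF region stood without an H1 ATAC region.

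Among the gamma genes the highest HFFc6 CTCF value was PCDHGA12, with a fold enrichment of 15.1 (−log10 q 199, summit at 95 bp, percentile 97.6), which was also the highest of that list at any of the 53 starts. PCDHGA9 was the lowest, with a fold enrichment of 3.201 (−log10 q 8.14, summit at 16 bp, percentile 11.8). In the hESC-named list PCDHGB4 was highest, with a fold enrichment of 25.4 (−log10 q 238, summit at -173 bp, percentile 98.3), and PCDHGA6 lowest, with a fold enrichment of 3.19 (−log10 q 2.99, summit at -126 bp, percentile 7.03). The A genes stood low in HFFc6 as a group, with a median percentile of 26.1 over 11 genes, while the 7 B genes had a median percentile of 77.6. In the hESC-named list the median percentile was 51.5 over 9 A genes and 76.2 over the 7 B genes.

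The gamma genes with CTCF in HFFc6 alone were PCDHGA5, with a fold enrichment of 3.57 (−log10 q 9.34, summit at 20 bp, percentile 17.98), PCDHGA7, with a fold enrichment of 8.14 (−log10 q 59.2, summit at -19 bp, percentile 66.4), and PCDHGC5, with a fold enrichment of 6.501 (−log10 q 30.4, summit at -97 bp, percentile 53.03). PCDHGA5 had no other region in any list, although its promoter has GNCGCT in the window. PCDHGC4, known in mouse for the survival of neurons, was the reverse case. It had no region in either HFFc6 list, a CTCF region in the hESC-named list with a fold enrichment of 17.8 (−log10 q 135, summit at -137 bp, percentile 87.8), and an H1 ATAC region with a fold enrichment of 11.5 (−log10 q 52.7, summit at -42 bp, percentile 82.95). PCDHGC5, the next gene along, had regions in both HFFc6 lists and in neither stem cell list. PCDHGA8 had no region in any of the 4 lists. PCDHGC3, the first C-type gamma gene, had a region in all 4.

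ATAC at the gamma starts reached its highest HFFc6 value at PCDHGB3, with a fold enrichment of 16.1 (−log10 q 224, summit at -55 bp, percentile 94.3), and its highest H1 value at PCDHGB4, with a fold enrichment of 16.5 (−log10 q 43.1, summit at -36 bp, percentile 94.5). The A genes open in HFFc6 alone were PCDHGA1, with a fold enrichment of 5.67 (−log10 q 95.3, summit at -63 bp, percentile 46.9), PCDHGA2, with a fold enrichment of 4.31 (−log10 q 21.4, summit at 26 bp, percentile 33.8), and PCDHGA3, with a fold enrichment of 3.55 (−log10 q 13.9, summit at -13 bp, percentile 24.5). Far higher within the same list were 2 more. PCDHGA7 had a fold enrichment of 13.01 (−log10 q 374, summit at 156 bp, percentile 84.96), and PCDHGA12 had a fold enrichment of 15.4 (−log10 q 339, summit at 95 bp, percentile 92.6). PCDHGC5 had a fold enrichment of 11.6 (−log10 q 391, summit at -49 bp, percentile 79.8), again in HFFc6 alone. PCDHGB6 was open in H1 alone, with a fold enrichment of 10.98 (−log10 q 34.3, summit at 19 bp, percentile 81.4). PCDHGA4, PCDHGA5, PCDHGA6, PCDHGA8 and PCDHGA9 had no ATAC region in either list, and 4 of these 5 still had an HFFc6 CTCF region, with fold enrichments of 3.55, 3.57, 3.83 and 3.201 for PCDHGA4, PCDHGA5, PCDHGA6 and PCDHGA9. The 34 bases around the element were identical in PCDHGB4 and PCDHGB5, between which PCDHGA8 lies. PCDHGB4 and PCDHGB5 themselves had a region in all 4 lists. How reads that fit several places were handled is not stated, and a link to the missing regions was not tested.

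CTCF and open chromatin did not always meet at these starts. In HFFc6, 31 of the 38 starts with CTCF also had an HFFc6 ATAC region, and the exceptions were PCDHA9, PCDHAC1, PCDHGA4, PCDHGA5, PCDHGA6, PCDHGA9 and PCDHGB6. For the stem cell lists it was 35 of 48 starts. The same share over plus-strand genes was 97.9% in HFFc6 and 97.9% for the stem cell lists. The 13 exceptions were 3 alpha genes (PCDHA1, PCDHA3 and PCDHA5), 3 beta genes (PCDHB7, PCDHB9 and PCDHB12) and 7 gamma A genes (PCDHGA1, PCDHGA2, PCDHGA3, PCDHGA4, PCDHGA6, PCDHGA9 and PCDHGA12). Whether the hESC-named list comes from H1 is not given. The opposite case, ATAC without CTCF, was met at 8 of the 53 starts in HFFc6 and at 1 in the stem cell lists (PCDHB8). Those in HFFc6 were PCDHA1, PCDHA6, PCDHA8, PCDHA11, PCDHA12, PCDHB4, PCDHB8 and PCDHB11. Of 8065 plus-strand genes, 5915 had an HFFc6 ATAC region, and 5243 of these also had HFFc6 CTCF. For H1 ATAC it was 6145 genes, of which 5257 also had hESC-named CTCF.

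The alpha genes had many of their summits well inside the gene. In H1 the ATAC summit lay between 509 and 582 bp after the start at PCDHA2, PCDHA4 and PCDHA6 to PCDHA13, which is 10 of the 12 alpha genes with a region. Over other plus-strand genes with an H1 ATAC region, 6.54% of 6112 summits lay between 400 and 700 bp after the start. In HFFc6 ATAC 3 of 9 alpha summits lay there, at PCDHA2, PCDHA8 and PCDHA11, against 5.63% of other genes. The other 6 lay between -42 and 48 bp. In HFFc6 CTCF 1 of 6 did, at PCDHAC1, against 6.14%. In the hESC-named CTCF list 5 of 15 alpha summits lay between 400 and 700 bp after the start, at PCDHA5, PCDHA7, PCDHA9, PCDHA11 and PCDHA13, against 6.06% of other genes. The alpha regions of that list were wide, with a median of 1284 bp, against 827 bp at beta starts and 682 bp at gamma starts. Over the whole hESC-named list the median was 496 bp. Of the 15 alpha regions 13 covered the whole stretch from -50 to 550 bp, against 0 at beta and 0 at gamma starts. No share over other genes is given for this. Alpha variable exons are known to carry a second CTCF site inside the exon, and no exon annotation was used here. With only the strongest region of each gene counted, 0 summits of any of the 4 lists at beta and gamma starts lay between 400 and 700 bp. A second, weaker H1 ATAC region of PCDHGC3, with its summit at position 141476629, lay in that range and was not counted.

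**Figure D3:**
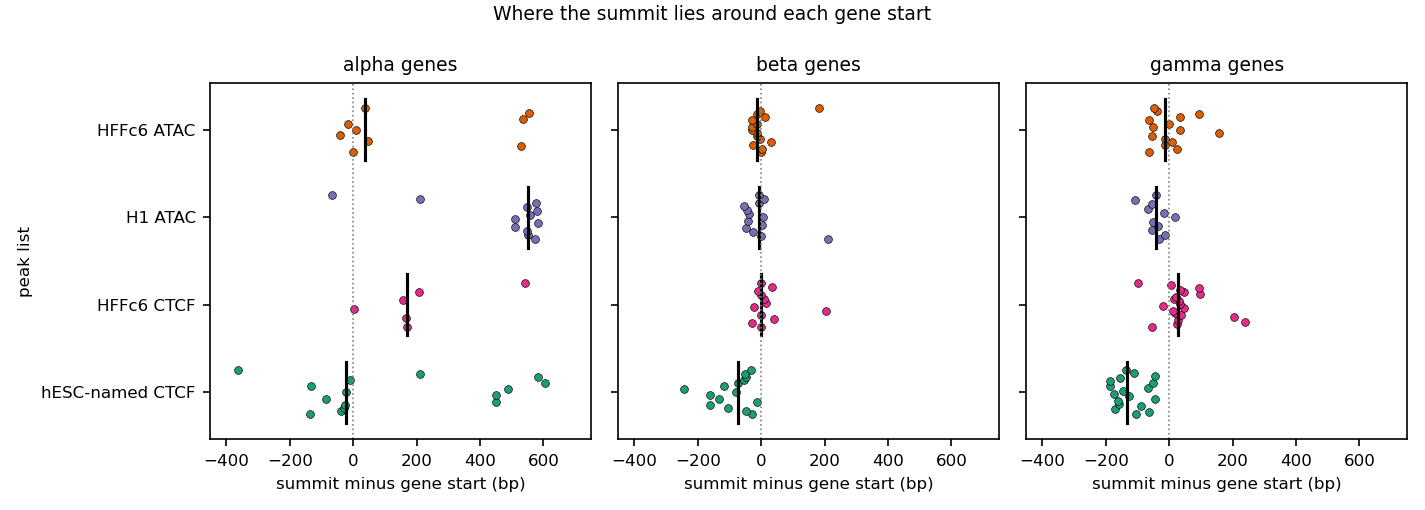
Points are the distance in bp of each listed summit from the gene start, with the strongest region taken for each gene, in 1 panel per family and 1 row per list, and black bars mark medians. The H1 ATAC summits of the alpha genes gather between 509 and 582 bp, while beta and gamma summits of all lists lie within 250 bp of the start.

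CTCF summits of the 2 lists were also offset from each other. Where a gene had CTCF in both lists, the HFFc6 summit lay farther into the gene at 33 of 35 genes, with a median offset of 124 bp. The median was 65.5 bp over 12 beta genes and 172 bp over 17 gamma genes, without exception in both families. Over 4724 other plus-strand genes with both regions the median offset was 43 bp and 60.7% had the HFFc6 summit farther in. HFFc6 CTCF summits lay at or after the start at 29 of 38 genes, against 46.7% of other plus-strand genes, and hESC-named CTCF summits before it at 42 of 48, against 67.7%. HFFc6 CTCF and HFFc6 ATAC summits lay within 50 bp of each other at 20 of 31 genes, against 35.2% of 5216 other genes. For hESC-named CTCF and H1 ATAC it was 13 of 35 genes, against 33.1%, and for HFFc6 ATAC and H1 ATAC 20 of 28, against 45.3%. With the HFFc6 CTCF assay taken as Cut&Tag, both HFFc6 assays cut with Tn5. The part of the enzyme in the summit positions was not tested.

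The summits were also set against the CGCT element. The element was accepted only in a fixed window before the start, so these distances largely restate the summit positions from the start. They therefore do not test the offset between the CTCF lists separately. No share over other promoters with GNCGCT is given here. HFFc6 CTCF summits lay downstream of the element at 31 of 31 genes, by a median of 85 bp and by at least 29 bp. The hESC-named CTCF summits lay on both sides of it, upstream at 25 and downstream at 14 of 39 genes, with a median of -24 bp. Within 50 bp of the element were 5 of 31 HFFc6 summits and 18 of 39 hESC-named summits. The CTCF regions themselves covered the element at 29 of 31 genes in HFFc6 and at 38 of 39 in the hESC-named list. HFFc6 ATAC summits were likewise downstream at 31 of 31 genes, by a median of 54 bp, and H1 ATAC summits at 26 of 28 genes, with a median of 48.5 bp. Of the 42 genes with GNCGCT in the window, 31 had an HFFc6 CTCF region and 39 an hESC-named one. Of the 5 genes with an entry but without it there, 3 had an HFFc6 and 4 an hESC-named CTCF region, and these 5 include PCDHB5 and PCDHB8, which have the beta word outside the window.

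**Figure D4:**
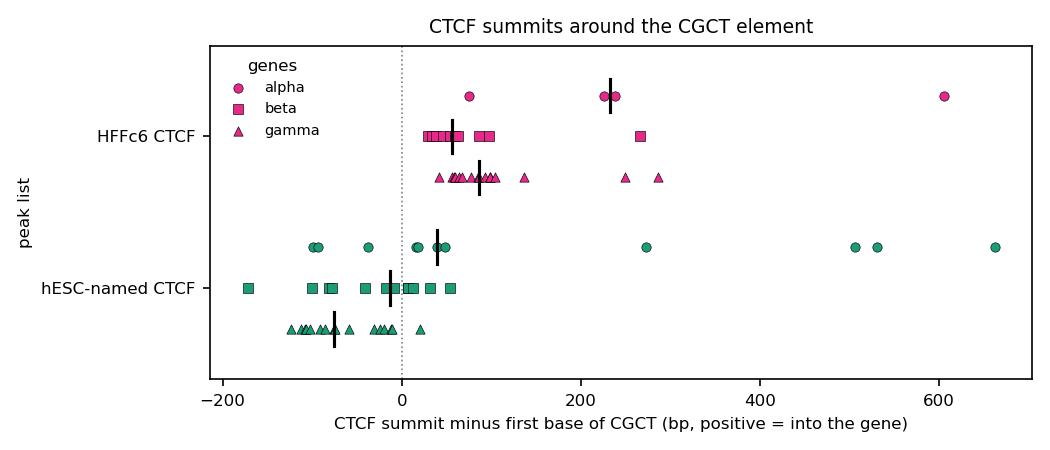
Points are the distance in bp from the first base of CGCT in the element to the CTCF summit, for genes with the element and a region, with 1 marker shape per family and black bars for medians. The 31 HFFc6 summits all lie to the right of 0, and the 39 hESC-named summits lie on both sides.

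For ATAC the locus as a whole, starts and spaces together, held 69 HFFc6 and 69 H1 regions. For CTCF it held 63 HFFc6 and 84 hESC-named regions. Of the HFFc6 ATAC regions 63.8% (95% Wilson interval 52.0 to 74.1) overlapped H1 ATAC, against 34.7% of that whole list. Of the H1 ATAC regions 69.6% (57.9 to 79.2) overlapped HFFc6 ATAC, against 31.8%. For CTCF it was 79.4% (67.8 to 87.5) of the HFFc6 regions, against 50.9%, and 59.5% (48.8 to 69.4) of the hESC-named regions, against 41.3%. These intervals cover counting error only, and neighbouring regions are not independent. Most regions of the whole HFFc6 ATAC list, 139197 of 155746, lay over 1 kb from both ends of every protein-coding gene. In the locus 39 of the 69 HFFc6 ATAC regions lay at the starts, so locus and whole list differ in make-up. Shares split by place follow below. HFFc6 CTCF regions overlapped an HFFc6 ATAC region at 85.7%, near the 85.0% of the whole list, and hESC-named CTCF regions an H1 ATAC region at 67.9%, against 72.6%.

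The share of regions found in the other list was higher at the starts than elsewhere in the locus, with intervals that overlap in all 4 lists. At the starts of the 53 genes 89.5% (75.9 to 95.8) of 38 HFFc6 CTCF regions and 69.4% (55.5 to 80.5) of 49 hESC-named regions were shared. Elsewhere in the locus it was 64.0% (44.5 to 79.8) of 25 HFFc6 and 45.7% (30.5 to 61.8) of 35 hESC-named regions. For ATAC, 71.8% (56.2 to 83.5) of 39 HFFc6 and 76.3% (60.8 to 87.0) of 38 H1 regions were shared at the starts. Elsewhere it was 53.3% (36.1 to 69.8) of 30 HFFc6 and 61.3% (43.8 to 76.3) of 31 H1 regions. Across the genome the same contrast was wider, with regions near any gene end left out of the second group. At the starts of other plus-strand genes 84.3% of HFFc6 CTCF, 83.6% of hESC-named CTCF, 91.2% of HFFc6 ATAC and 85.4% of H1 ATAC regions were shared. The locus starts thus stood below other starts for both ATAC lists and the hESC-named CTCF list, and above them for HFFc6 CTCF. For HFFc6 CTCF and H1 ATAC the share of other starts lay inside the locus interval. More than 1 kb from both ends of every protein-coding gene it was 45.1% of HFFc6 CTCF, 35.2% of hESC-named CTCF, 29.4% of HFFc6 ATAC and 26.4% of H1 ATAC regions. PCDHGA4 was the one gene with CTCF in both lists whose 2 regions did not overlap. The 1 kb limit cut between a region of the hESC-named list 678 bp before PCDHGC4 (fold enrichment 2.97), which counted, and an H1 ATAC region 1084 bp after PCDHAC1 (4.27), which did not.

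**Figure D5:**
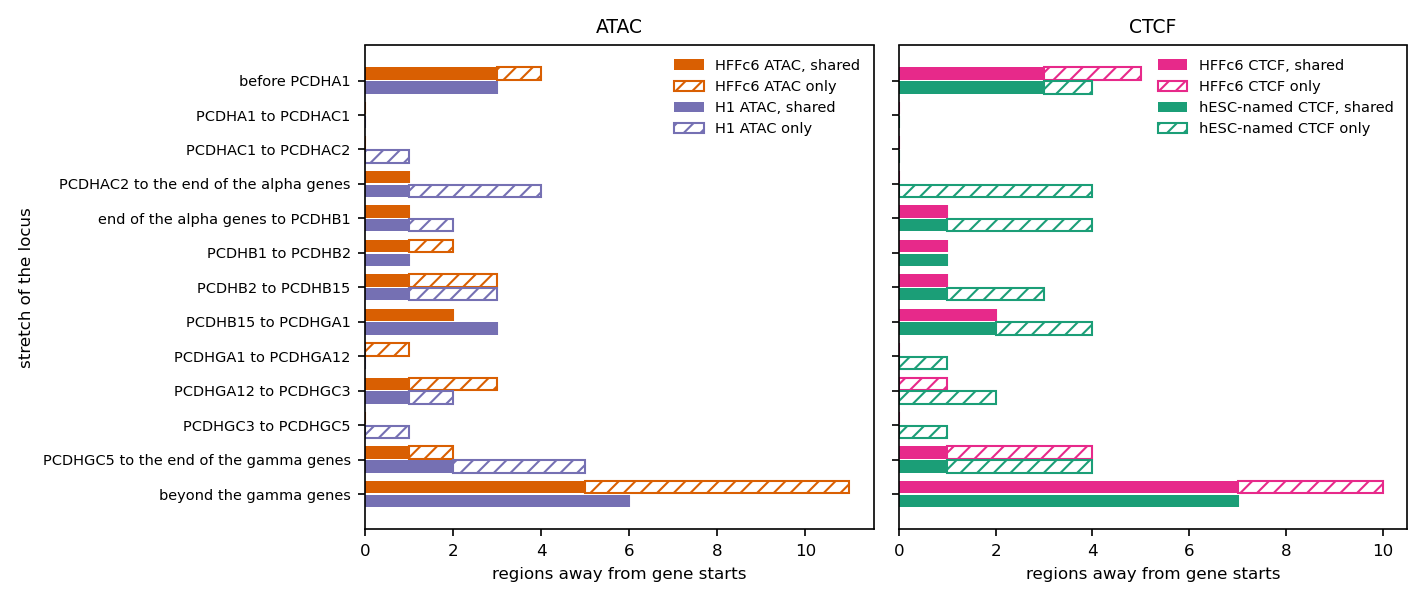
Bars count regions away from the starts in each stretch of the locus, running from before PCDHA1 to beyond the gamma genes, with filled parts shared with the other list of the assay and hatched parts not. From PCDHAC2 to the end of the alpha genes the hESC-named list has 4 CTCF regions and HFFc6 has 0.

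Between the promoters the numbers of CTCF regions in the 2 lists stood 4 apart in the stretch from PCDHAC2 to the end of the alpha genes, which holds the constant exons of that family. HFFc6 had 0 CTCF regions there and 1 ATAC region, at percentile 1.47 of its list. The hESC-named list had 4 CTCF regions and H1 4 ATAC regions. The strongest of these CTCF regions, chr5:140986221-140986834, had a fold enrichment of 12.3 and overlapped the strongest H1 ATAC region of the stretch, chr5:140986009-140986716, with a fold enrichment of 17.1 at percentile 95.3. Between the alpha genes and PCDHB1 the single HFFc6 CTCF region, chr5:141041163-141041418, had a fold enrichment of 6.95 and overlapped a region of every other list. The hESC-named list had 3 more regions away from the starts in that stretch, all in that list alone. From PCDHGC5 to the end of the gamma genes each list had 4 CTCF regions, of which 3 HFFc6 and 3 hESC-named regions were not shared.

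The strongest regions away from the starts lay at other genes, between families or in the stretches that the alpha or the gamma genes share. In HFFc6 CTCF the first was at TAF7, a general transcription factor gene between the beta and gamma genes, with a fold enrichment of 18.2 at percentile 99.6 and regions in all lists. The next 2 were at VTRNA1-3, a vault RNA gene before PCDHA1, with 12.7, and inside DIAPH1 beyond the gamma genes, with 11.9. In the hESC-named list the first was chr5:141512230-141513093 at the end of the gamma genes, with 23.9. It had an HFFc6 CTCF counterpart with a fold enrichment of 3.56 at percentile 17.9 of that list. The next was chr5:141272828-141273385 between PCDHB15 and PCDHGA1, with 22.8 and no region in any other list, and then came PCDHB17P, a beta pseudogene, with 21.1. In HFFc6 ATAC the 3 highest were at ZMAT2 (19.1), VTRNA1-3 (18.9) and VTRNA1-2 (18.8), all before PCDHA1. In H1 ATAC they were inside DIAPH1 (22.7), at chr5:141326125-141326689 before PCDHGA1 (18.9) and the region in the alpha constant stretch given above (17.1).

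Other genes of the pathway were counted by a region within 1 kb of either end. Of 12 protocadherins outside the clusters, CTCF was at 5 in HFFc6 and at 6 in the hESC-named list, and ATAC at 8 in HFFc6 and at 11 in H1. Over all protein-coding genes CTCF was at 68.7% in HFFc6 and at 69.6% in the hESC-named list. The same shares for ATAC were 76.1% in HFFc6 and 78.8% in H1. PCDH7 and PCDH18 had CTCF in HFFc6 alone, and PCDH8, PCDH17 and PCDH20 in the hESC-named list alone. All 14 genes known to act on the clusters, among them CTCF itself, the cohesin genes RAD21, SMC1A and SMC3, the cohesin loader gene NIPBL, the release factor gene WAPL and the silencing genes SMCHD1, SETDB1 and DNMT3B, had regions in all 4 lists, as had 59.1% of all protein-coding genes. Of 6 partners of the protocadherin tails, which include the kinase genes PTK2 and PTK2B, ATAC was at 6 in HFFc6 and at 6 in H1. CTCF was at 6 in HFFc6 and at 5 in the hESC-named list, the difference being CYFIP1.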

How the data were processed

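The authors deposited 4 narrowPeak lists, used here as hg38, made with BWA, MACS2 and bedtools per the submitters' processing notes, which give no version, filter or control and do not say how replicates were joined. Each deposited list holds a score, which was not used, a fold enrichment (a ratio over background, from the peak caller), −log10 p-values and −log10 q-values, down to a q of 0.05, and a summit offset (other). Values per library are not in these lists, so no test, SD or depth is given. Regions on chromosomes 1 to 22 and X were kept. Starts and genes came from RefSeq tables (GRCh38.p14), in Python 3.11.15 with pandas 2.3.3, numpy 2.4.6 and scipy 1.17.1. Overlap and word searches were tested on simulated data (0 errors in 1500 overlaps and 500 planted words). The planted words held no N, and the search on the other strand was not tested. The 53 genes and all lists were chosen with earlier results of these data known. All 53 genes are accounted for. Values are given for genes whose presence differed between lists, for the strongest regions per family and list, for the 3 strongest per list elsewhere and for the strongest and weakest CTCF regions per family. Sequences are given for the highest HFFc6 CTCF value per family among genes with a promoter entry, for alpha genes with CTCF in the hESC-named list alone, and for PCDHGA8 and PCDHGA5, added after their values were seen. The alternatives were windows of 500 bp and 2 kb, −log10 q of at least 10, lists of equal numbers, summit in the window, an overlap of 50% and 250 bp around summits.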

Additional observations from a re-analysis of the deposited data

How the results depend on the processing

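Of 60 gene counts recomputed under alternatives, 59 stayed within 1.5 times the reported count, and 24 of 24 shares moved by less than their interval. The exception was HFFc6 ATAC at the alpha genes, which fell to 5 of 15 with −log10 q of at least 10, since fewer regions enter. HFFc6 CTCF at alpha genes ranged from 4 to 6 and the hESC-named count stayed at 15. H1 ATAC at gamma genes ranged from 8 to 11, and the lower count lost PCDHGB3, PCDHGB5 and PCDHGA11. No paired analysis was possible because each list is 1 call for its group, and for the same reason no library could be left out. Depth behind the lists is unknown, so a missing region is not shown to be an absent one.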

Other observations

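The locus also holds protocadherin pseudogenes, counted by a region within 1 kb of the low-coordinate end. PCDHB17P had ATAC regions with a fold enrichment of 4.12 in HFFc6 and 12.7 in H1, no HFFc6 CTCF region, and a hESC-named CTCF region with 21.1, with its summit at -11 bp from that end. PCDHB18P had an ATAC region in HFFc6 alone (5.95) and CTCF in both lists, at 5.33 (HFFc6) and 8.58 (hESC-named). PCDHGB9P had ATAC in both lists (4.71 in HFFc6 and 5.21 in H1) and CTCF in the hESC-named list alone (6.64). PCDHA14, PCDHB19P and PCDHGB8P had no region in any of the 4 lists.

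Some of the 53 starts had a region in HFFc6 alone for both assays, namely PCDHGA7 and PCDHGC5. Others had one in the stem cell lists alone for both, namely PCDHA10, PCDHA13, PCDHAC2, PCDHB1 and PCDHGC4. The share of such genes among all plus-strand genes was not computed, so neither pattern is shown to be particular to the locus. PCDHA1 had ATAC in HFFc6 alone and CTCF in the hESC-named list alone.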
